A study of Ovis aries with 18 samples.

Results

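Allelic imbalance (AI), the unequal presence of the alleles of a gene in its RNA, was examined in the genes that encode splicing factors, RNA helicases and related RNA processing proteins. The members were chosen by gene name alone: autosomal SNPs in genes whose symbols begin with SRSF, SRRM, SF3, SNRP, SNRNP, HNRNP, RBM, DDX, DHX, PRPF, U2AF, LSM, CELF, MBNL, PTBP, QKI, RBFOX, CPSF, CSTF, UPF, SMG, EXOSC or XRN, together with SF1. They numbered 413 SNPs in 119 genes, of 24355 SNPs in 5810 genes, and 10 further SNPs of matching names on chromosome X were left out. The RNA came from perirenal adipose tissue (PRAT) of 18 wild type, pure bred merino fetuses at 132 days post conception, 16 female and 2 male. The fetuses were untreated singletons of 1 sire and unrelated ewes fed to maintenance, and each fetus was 1 library of a single condition, so the comparison is between the reference and the alternate allele within heterozygous animals. PRAT at this age is a whole-tissue sample of the main brown fat depot of the sheep, not a sorted cell type.

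Pre-mRNA splicing is carried out by the spliceosome, which is built anew on each intron. The U2 small nuclear ribonucleoprotein (snRNP) and the U2AF and SF1 proteins recognise the branch site and the 3′ splice site, and the PRPF proteins, SNRNP200 and several DHX and DDX helicases remodel the complex towards catalysis. SR proteins mostly favour and hnRNP proteins often oppose the use of nearby splice sites. MBNL and CELF proteins shift alternative exons in a tissue dependent manner. The CPSF and CSTF complexes take part in cleavage and polyadenylation of the 3′ end. The UPF, SMG, XRN and EXOSC proteins degrade RNA, including transcripts with a premature stop codon. No CELF, QKI, CSTF or XRN gene was among the members, since none had a listed autosomal SNP.

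The reads counted over the SNPs of the members ranged from 42814 to 71765 per animal, which is 1.26% to 1.55% of the reads at all SNPs, and the median depth at the heterozygous SNPs of an animal was between 60 and 107.5 reads. The adipocyte markers UCP1 and ADIPOQ had median depths of 11840 and 13411 reads per SNP and animal. The 8 of 10 adipocyte markers with a SNP ranged from 83.9 to 13411 reads, with LEP (83.9), PPARGC1A (116) and FASN (179) the lowest. None of the 4 kidney markers had a SNP, and a gene without a SNP is not measured here. The 1 adrenal cortex marker with a SNP was at 46.4 reads. Endothelial markers (3 of 4 with a SNP) lay at 253 to 348 reads, leukocyte markers (3 of 4) at 26.1 to 34.9 and skeletal muscle markers (2 of 7) at 29.7 to 130. One animal labelled female, RS929, was called heterozygous at 29.1% of X-linked SNPs, beside 32.4% and 25.4% in the males and 54.1% to 69.7% in the other females, so results that rest on it are also given without it.

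Most SNPs of these genes had nearly equal numbers of reads of both alleles, and where AI was called the reference allele was usually the more abundant. Reads of the animals called heterozygous were summed at each SNP and tested with a Poisson likelihood ratio test against an equal share, with Benjamini-Hochberg adjustment over 24001 autosomal SNPs and a threshold of 0.05. SNPs heterozygous in 15 or more of the 18 animals were kept apart. Among the 362 SNPs (116 genes) heterozygous in 1 to 14 animals, 121 showed AI, which is 33.4% compared with 34.6% of all autosomal SNPs of this kind. When the animals were taken as replicates in a moderated quasi-binomial F test, 70 of the 362 were called, 19.3% compared with 20.8%. With these settings the fractions were close to those of the whole table. When both alleles had to reach 30 reads in 5 or more heterozygous animals, 75 of 212 member SNPs were called on summed reads (35.4%, beside 45.9% of all) and 46 with animals as replicates (21.7%, beside 28.9%), both below the whole table; whether these fractions differ was not tested.

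Of the 121 calls, 103 were towards the reference and 18 towards the alternate allele, a reference fraction of 85.1% compared with 76.4% for all autosomal calls. With the median share of all such SNPs (0.517) as the null share in place of 0.5, 87 member SNPs were called on summed reads (24.0%, beside 31.1% of all) and 51 with animals as replicates (14.1%, beside 17.3%). Of the 87 calls 66.7% lay above the null, beside 54.0% of all. Shares were close to equal at most of the called SNPs: of the 70 called with animals as replicates, 48 lay within 0.1 of an equal share and 13, in 7 genes, were at least 0.2 away. By gene, 55 of 116 (47.4%) had at least 1 SNP with AI on summed reads and 38 (32.8%) with animals as replicates, while the shares over all genes were 55.6% and 37.7%. A typical gene here had few SNPs, since the median was 2 and 43 genes had only 1.

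At SNPs heterozygous in nearly every animal the departures were wider. This group held 51 SNPs in 22 genes, 22 of them heterozygous in all 18 animals, and 36 (70.6%) showed AI on summed reads, compared with a background of 68.0%. With animals as replicates 32 (62.7%) were called, compared with 59.4%. Many had a neighbour close by: 28 of the 51 lay in runs of SNPs no more than 10 bp apart, and 45.1% had another SNP within 5 bp, beside 5.52% of the member SNPs heterozygous in fewer animals. Without SNPs that have a neighbour within 5 bp, 28 SNPs were left and 13 of them were called on summed reads (46.4%, beside 52.5% of all). Transversions made up 41.2% of these SNPs and 19.1% of the others, close to the 44.7% and 19.1% of the whole table.

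**Figure D1:**
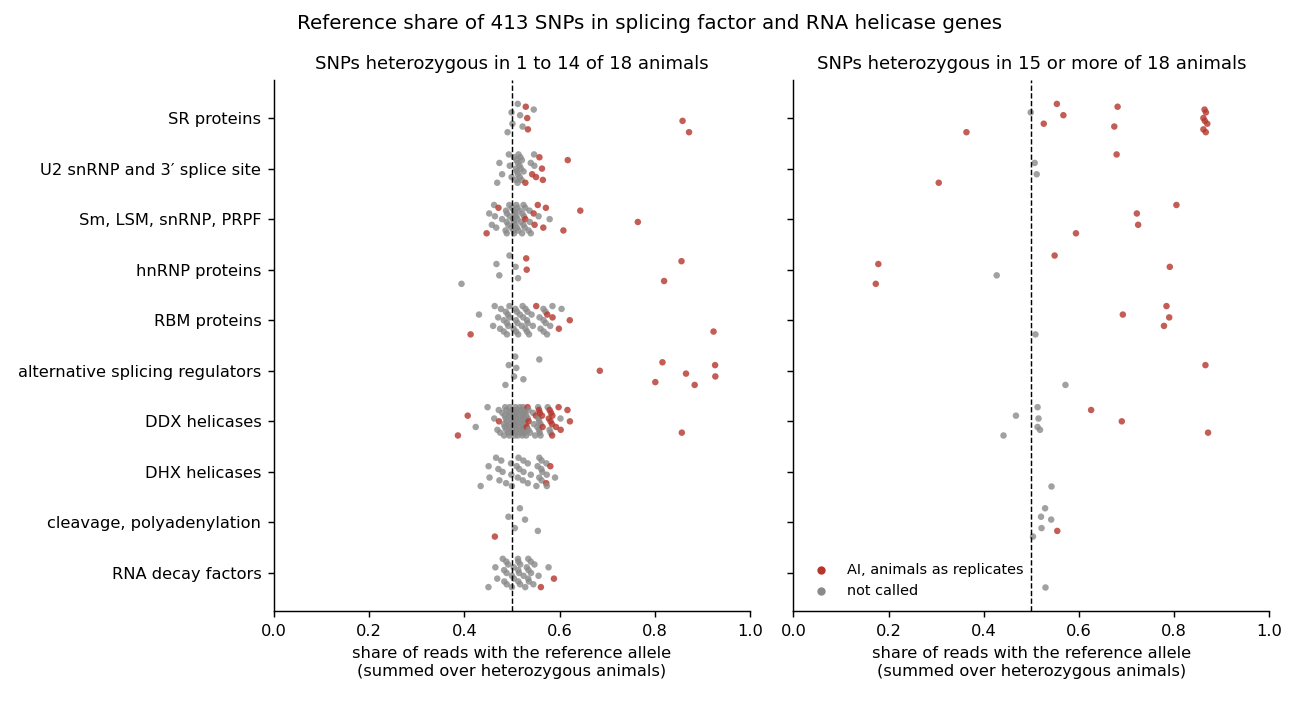
Share of reads with the reference allele (0 to 1, summed over heterozygous animals) at each of the 413 SNPs, by the role of the gene; the left panel holds SNPs heterozygous in 1 to 14 animals and the right panel those heterozygous in 15 or more, each point is 1 SNP, and red points showed AI with animals as replicates. Most points on the left lie near the dashed line at 0.5, with the far points in SR proteins, SNRPD1, HNRNPL, RBM39, MBNL1 and DDX6, while on the right 18 of 51 SNPs are at least 0.2 from it.

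SR proteins and the SR-related matrix proteins (26 SNPs in 7 genes) had 12 SNPs heterozygous in 1 to 14 animals. On summed reads 7 were called (58.3%, beside 34.6% of all such SNPs), and with animals as replicates 5 (41.7%, beside 20.8%). SRRM2 held 3 of the 5. The 12 SNPs had a median depth of 414 reads, beside 66.3 for all such SNPs. Whether depth bears on the fractions was not tested. Of the 14 heterozygous in more animals, 13 were called by both tests (92.9%, beside 68.0% and 59.4% of all). Of these 14 SNPs, 8 belong to a single stretch of SRRM2. SRSF4, an SR protein with a long arginine and serine rich tail, had a synonymous SNP on chromosome 2 at 237274074 (Oar v3.1, reference C and alternate G). The 6 heterozygous animals had reference shares from 0.843 to 0.906 with a median of 0.865, at 178 to 286 reads each, so that every one of them had far more reference reads. The summed share was 0.872 (mean 0.871 ± 0.0240, SD, n = 6, adjusted P-value 3.52e-12 with animals as replicates, limma moderated), while the exact sign-flip permutation test gave 0.0312, the smallest P-value 6 animals allow. In the 12 animals called homozygous for the reference allele the alternate allele made up 0.113% of reads.

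SRSF1, which activates 5′ splice sites and founded the family, was close to balance at the synonymous SNP at chr11:8349361, with shares of 0.468 to 0.562 and a median of 0.528 in 12 animals. The reference allele was higher in 11 of the 12 (exact permutation P-value 0.00439), but the call was lost with 0.517 as the null share. Elsewhere in the gene a run of 3 SNPs within 7 bp, 2 of them missense, was heterozygous in all 18 animals. The first, at chr11:8348712, had shares from 0.574 to 0.758 with a median of 0.678 and more reference reads in 18 of 18 animals, and the summed shares of the others were 0.567 and 0.553. SRSF3, the smallest of these proteins, had shares of 0.487 to 0.568 with a median of 0.521 in 10 animals at a splice region SNP at chr20:10609729, called on summed reads but not with animals as replicates (adjusted P-value 0.0671).

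SRRM2, a scaffold of the nuclear speckle, had 14 SNPs, 9 of them within 17 bp at chr24:2267059-2267075. At the first, a missense SNP heterozygous in 18 animals, the shares ran from 0.803 to 0.932 with a median of 0.879. The following 6 SNPs had summed shares of 0.861 to 0.867, and the last one 0.681. The SNP at chr24:2267072 differed from its neighbours in its genotype calls, with 9 heterozygous animals at 0.831 to 0.887 (median 0.859) and 9 called homozygous for the reference allele that held 0.368% of the other allele. At the SNP at chr24:2267059 the 9 animals heterozygous at chr24:2267072 had shares of 0.886 to 0.932, and the 9 homozygous ones 0.803 to 0.871, so that the groups did not overlap. The same separation was present at the other 6 SNPs before chr24:2267072, but not at the last SNP of the run. SRSF11 ran the other way: in 18 heterozygous animals at chr1:45661316 the shares were 0.172 to 0.5 with a median of 0.398, and the alternate allele was higher in 17, at a depth of only 14 to 39 reads per animal.

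The U2 snRNP proteins and the factors of the branch site and 3′ splice site (36 SNPs in 8 genes) had a median share of 0.516 among SNPs heterozygous in 1 to 14 animals, close to the 0.517 of all SNPs. These 32 SNPs had a median depth of 190 reads, beside 66.3 for all such SNPs. Of the 32, 13 were called on summed reads (40.6%, beside 34.6% of all) and 7 with animals as replicates (21.9%, beside 20.8%). Each of the 7 had the reference allele higher, and none was 0.2 or more from equal. SF3B3, a large scaffold of the SF3B complex, had its leading SNP at chr14:981081, a synonymous change within a splice region. Its 9 heterozygous animals had shares of 0.575 to 0.661 with a median of 0.607, all above 0.5 (exact permutation P-value 0.00391, adjusted P-value with animals as replicates 1.12e-05). SF3B1, which holds the branch site adenosine in place, had shares of 0.488 to 0.593 with a median of 0.557 in 11 animals at chr2:198640518, 10 of them with more reference reads (adjusted P-value 5.02e-05). U2AF2, the large subunit that binds the polypyrimidine tract, lay at 0.491 to 0.596 with a median of 0.541 in 12 animals at chr14:59145554, the reference allele being higher in 11. In each of these genes most of the animals had a small excess of reference reads.

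Within SF3B3 the direction was not the same along the gene. The SNPs at chr14:970150 and chr14:970240 had summed shares of 0.469 and 0.474 and were called on summed reads with the alternate allele higher, but neither was called with animals as replicates (adjusted P-values 0.141 and 0.160), and neither kept its call without RS929 (adjusted P-values 0.0592 and 0.156) or without RS902, the shallowest library (0.0749 and 0.124). SF3B2, another SF3B subunit, had a pair of SNPs 5 bp apart, both heterozygous in 18 of 18 animals. At chr21:43444836 the shares were 0.551 to 0.787 with a median of 0.667, and at chr21:43444841 they were 0.197 to 0.420 with a median of 0.306. The animals therefore had more reference reads at the first SNP in 18 of 18 and more alternate reads at the second in 18 of 18. SF3A3, a subunit of the SF3A complex that joins U2, was among the SNPs with the widest spread between animals, with shares of 0.404 to 0.664 and a median of 0.543 in 11 animals at chr1:12499772 (dispersion 4.61, where 1 is counting error alone).

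Sm, LSM, snRNP and PRPF proteins had 59 SNPs in 23 genes, 55 of them heterozygous in 1 to 14 animals. Of the 55, 18 were called on summed reads (32.7%, beside 34.6% of all) and 11 with animals as replicates (20%, beside 20.8%). PRPF8, the protein at the catalytic centre of the spliceosome, had 11 SNPs, of which 9 were heterozygous in the same 9 animals. Its leading SNP, at chr11:22381120 within a splice region, had shares of 0.492 to 0.603 with a median of 0.572, with 8 of 9 animals above 0.5 (adjusted P-value 8.78e-05, exact permutation P-value 0.00781). At chr11:22381478 the same 9 animals had shares of 0.411 to 0.513 with a median of 0.475, and the alternate allele was higher in 8 of them. The summed share there was 0.472 (adjusted P-value 0.0025 on summed reads and 0.0407 with animals as replicates). Without RS929 the summed share was 0.480, and the call on summed reads was lost (adjusted P-value 0.0526).

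SNRNP200, the helicase that unwinds U4 from U6, likewise had called SNPs of both directions. At chr3:104003503 the reference share was 0.496 to 0.642 with a median of 0.565 and the reference allele was higher in 12 of 13 animals (adjusted P-value 0.000218). At chr3:104008913 the shares of 13 animals were 0.388 to 0.519 with a median of 0.440, with the alternate allele higher in 12 (adjusted P-value 0.000759); this second SNP was picked out after its value was seen. PRPF31, which stabilises the U4/U6 and U5 particles, had a missense SNP at chr14:60326779 heterozygous in 17 animals, with shares of 0.690 to 0.902 and a median of 0.810, while the animal called homozygous for the reference allele held 6.25% of alternate reads. SNRPF, a subunit of the Sm ring, carried 1 of the 2 stop gained SNPs of the members, at chr3:165245696. The 7 heterozygous animals had shares of 0.453 to 0.557 with a median of 0.498, 3 above and 4 below 0.5, and the test with animals as replicates did not call it (adjusted P-value 0.716).

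SNRPD1, also of the Sm ring, had 5 transversions within 20 bp at chr2:30444189-30444208, mostly spaced 6 bp apart. Its animals differed widely. At chr2:30444208 the shares of 18 heterozygous animals ran from 0.278 to 0.891 with a median of 0.622, and 17 were above 0.5. At chr2:30444195 the 7 heterozygous animals lay at 0.525 to 0.917 with a median of 0.667, with heterogeneity between animals at an adjusted P-value of 0.000113 by the Pearson chi-square test. At chr2:30444189 the 9 heterozygous animals had a median of 0.734, while those called homozygous held 8.31% of the alternate allele.

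hnRNP proteins had 15 SNPs in 7 genes, 10 of them heterozygous in 1 to 14 animals. Of the 10, 6 were called on summed reads (60%, beside 34.6% of all). With animals as replicates 4 were called (40%, beside 20.8%), 3 of them in HNRNPL. The 10 SNPs had a median depth of 264 reads, beside 66.3 for all such SNPs. The group included the deepest covered gene of the set, whose alleles were nearly balanced. HNRNPH1, which binds G-rich splicing elements, had shares of 0.493 to 0.534 with a median of 0.515 in 9 animals at chr5:1393533, at 853 to 1298 reads each. The summed share of 0.513 was called on summed reads but not with animals as replicates (adjusted P-value 0.10), and it lies below the median share of all SNPs. HNRNPA3, a relative of HNRNPA1, had shares of 0.508, 0.511, 0.529, 0.546 and 0.547 in its 5 heterozygous animals at chr2:131769751, each slightly above 0.5 (adjusted P-value 0.0382, lost with 0.517 as the null share).

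HNRNPL and HNRNPM were far from an equal share. HNRNPL, which binds CA-rich RNA, had 3 SNPs spaced 6 bp apart at chr14:47742599-47742611. At the second, the 9 heterozygous animals had shares of 0.756 to 0.872 with a median of 0.817, and the animals called homozygous for the reference allele held 14.4% of the alternate allele. A further synonymous SNP of the gene, at chr14:47740826, was called at a smaller departure, with shares of 0.490 to 0.570 and a median of 0.535 in 7 animals (adjusted P-value 0.0138). HNRNPM, whose RNA binding domains prefer GU-rich sequence, had a pair of missense SNPs at chr5:14761087 and chr5:14761089 at which the alternate allele was higher in 17 of 17 and 18 of 18 animals. The shares at the first were 0.105 to 0.281 with a median of 0.180. At its synonymous SNP at chr5:14766918 the shares of 10 animals were 0.452 to 0.539 with a median of 0.514, so the imbalance was not shared along the gene.

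RBM proteins, a family named for its RNA recognition motif rather than for 1 task, had 58 SNPs in 18 genes. Of 53 heterozygous in 1 to 14 animals, 17 were called on summed reads (32.1%, beside 34.6% of all). With animals as replicates 7 were called (13.2%, beside 20.8%). RBM6 had AI at a missense SNP at chr19:50258929, with shares of 0.538 to 0.681 and a median of 0.625. The reference allele was higher in 11 of 11 animals (exact permutation P-value 0.000977, adjusted P-value 3.80e-05), and the spread between animals was less than counting error (dispersion 0.429). RBMS2 lay at 0.451 to 0.658 with a median of 0.602 in 8 animals at chr3:162775334, 6 of them above 0.5 (adjusted P-value 0.0241).

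RBM28, a nucleolar protein of the spliceosomal snRNPs, had 16 SNPs whose summed shares ran from 0.413 to 0.789. Its pairs at chr4:92571829-92571832 and chr4:92575577-92575580 had summed shares of 0.566 to 0.599, and the SNP at chr4:92583190 had shares of 0.279 to 0.552 with a median of 0.398 in 10 animals, 8 of them with more alternate reads (adjusted P-value 0.0246). A run of 4 SNPs at chr4:92593852-92593864 was heterozygous in 15 to 18 animals. It includes the other stop gained SNP, at chr4:92593861, where the shares were 0.656 to 0.929 with a median of 0.775 and 15 of 15 animals had more reference reads. The 3 animals called homozygous for the reference allele there held 8.91% of the alternate allele, and the next 2 SNPs of the run, 2 and 3 bp further, had nearly the same shares in each animal.

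RBM39, a factor related to U2AF2, is named here after its values were seen. At chr13:64493093 only 3 animals were called heterozygous, with shares of 0.914, 0.930 and 0.926, and 15 called homozygous held 5.17% of alternate reads, between 3.85% and 6.15% each. RBM48, at chr4:9772370, had 5 heterozygous animals with shares of 0.378, 0.394, 0.611, 0.690 and 0.776, which spread widely on both sides of 0.5 at 33 to 49 reads each (dispersion 5.55, heterogeneity adjusted P-value 0.00285). The summed share of 0.580 was not called, except without RS902, when it was 0.616 (adjusted P-value 0.00777).

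Regulators of alternative splicing had 16 SNPs in 5 genes, 14 of them heterozygous in 1 to 14 animals. Of the 14, 8 were called on summed reads (57.1%, beside 34.6% of all). With animals as replicates 7 were called (50%, beside 20.8%), and the 7 were SNPs of MBNL1. The 14 SNPs had a median depth of 146 reads, beside 66.3 for all such SNPs. MBNL1 is held by expanded CUG repeats in myotonic dystrophy and otherwise moves exons towards their adult pattern. A run of 4 SNPs in its 3′ UTR, at chr1:233455731-233455738, had summed shares of 0.866 to 0.927. At the first, the 7 heterozygous animals had shares of 0.861 to 0.901 with a median of 0.884, corresponding to 9.92% to 13.9% of alternate reads, and the 11 animals called homozygous for the reference allele had 8.16% to 11.2%. Animals called heterozygous and homozygous thus overlapped in their reads at this SNP. A further SNP of the same UTR, at chr1:233458335, had shares of 0.476 to 0.663 and a median of 0.542 in 7 animals, and was called on summed reads only. In the 5′ UTR the SNP at chr1:233611773 had shares of 0.333 to 0.754 with a median of 0.577 in 16 animals (dispersion 4.29).

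DDX helicases (117 SNPs in 24 genes), which share the DEAD box and unwind short RNA duplexes, were the largest group. Among 108 SNPs heterozygous in 1 to 14 animals, AI was called at 36 on summed reads (33.3%, beside 34.6% of all). With animals as replicates it was called at 24 (22.2%, beside 20.8%), 21 of these with the reference allele higher. DDX20, a partner of the SMN complex that assembles snRNPs, had 10 SNPs, of which 8 were heterozygous in the same 13 animals. These 8 had summed shares of 0.546 to 0.602 with a median of 0.583, all on the side of the reference allele, and 6 were called with animals as replicates. At chr1:88320762 the shares were 0.509 to 0.718 with a median of 0.611, above 0.5 in 13 of 13 animals (exact permutation P-value 0.000244, which is the smallest that 13 animals can give, adjusted P-value 0.000150). Over the reads of all 8 SNPs the reference allele was also higher in 13 of 13 animals. The SNPs share animals and RNA, so they are not separate observations.

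DDX31 showed AI at chr3:4181953 with shares of 0.504 to 0.6 and a median of 0.552, above 0.5 in 11 of 11 animals (adjusted P-value 0.000104). In DDX54, an estrogen receptor corepressor with 16 SNPs, 8 were called on summed reads and 4 with animals as replicates, each with the reference allele higher. Its leading SNP at chr17:60845149 lay at 0.516 to 0.641 with a median of 0.587, above 0.5 in 10 of 10 animals (exact permutation P-value 0.00195). DDX5 and DDX39B, helicases of splicing and mRNA export, were covered by 663 or more reads in each heterozygous animal and departed little. The 5 heterozygous animals of DDX5 at chr11:48101409 had shares of 0.505, 0.528, 0.536, 0.538 and 0.544, and the 7 of DDX39B at chr20:26887593 had shares of 0.505 to 0.588 with a median of 0.525. The call in DDX5 was lost with 0.517 as the null share, and the one in DDX39B was not.

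DDX6, which represses translation in P bodies, had 2 SNPs of its 3′ UTR far from an equal share beside others near it. At chr15:28854595 the 11 heterozygous animals had shares of 0.825 to 0.882 with a median of 0.855, corresponding to 11.8% to 17.5% of alternate reads, and the 7 called homozygous had 10.2% to 15.4%. At chr15:28853896 the shares of 16 animals were 0.785 to 0.921 with a median of 0.878. Between them, at chr15:28854029, the shares of 8 animals were 0.482 to 0.558 with a median of 0.509. The other SNPs of the gene had summed shares of 0.513, 0.550 and 0.518, of which the one at chr15:28855408 (0.550) was called by both tests.

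**Figure D2:**
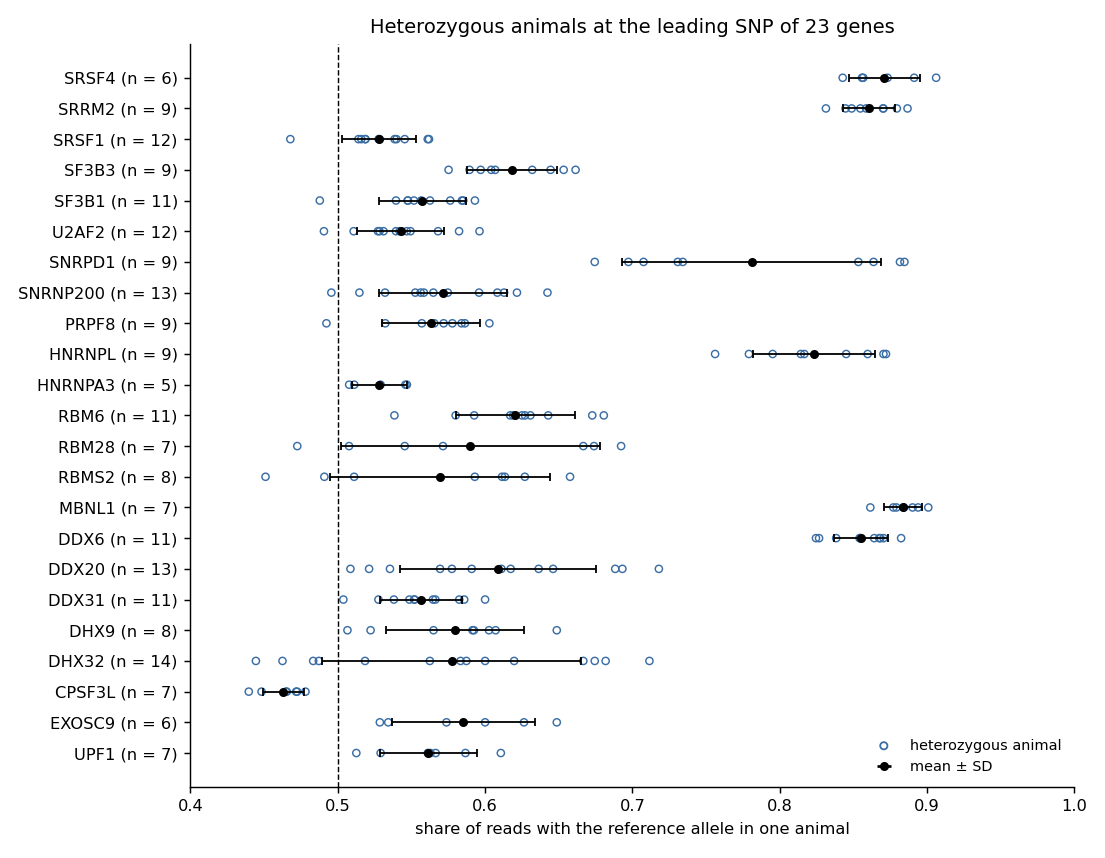
Share of reads with the reference allele in each heterozygous animal (open circles) and the mean ± SD over animals (black) at the leading SNP of 23 genes, ordered by role, with n heterozygous animals beside each name; the dashed line is an equal share. In most genes the animals lie between 0.45 and 0.7 and mainly above 0.5, in CPSF3L all 7 lie below it, and SRSF4, SRRM2, HNRNPL, MBNL1 and DDX6 lie above 0.75.

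DHX helicases (37 SNPs in 9 genes) and RNA decay factors (37 SNPs in 14 genes) had 36 SNPs each that were heterozygous in 1 to 14 animals. On summed reads 10 were called in the former (27.8%) and 5 in the latter (13.9%), beside 34.6% of all. With animals as replicates 2 were called in either (5.56%, beside 20.8%). The median depths were 43.5 reads in the former and 61.2 in the latter, beside 66.3 for all such SNPs. DHX9, an RNA helicase also known for its role in transcription, had shares of 0.507 to 0.649 with a median of 0.592 at chr12:62046356, above 0.5 in 8 of 8 animals (exact permutation P-value 0.00781, adjusted P-value 0.000815). DHX32 had shares of 0.444 to 0.712 with a median of 0.585 in 14 animals at chr22:44268449 (adjusted P-value 0.0168), while its SNPs at chr22:44264445 and chr22:44265675 had summed shares of 0.451 and 0.434 and were called on summed reads only, the latter not without RS929.

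UPF1, the helicase at the centre of nonsense mediated decay, had 7 SNPs, 6 of them heterozygous in the same 7 animals and both described here annotated as intronic in a non-coding transcript. At chr5:4110417 the shares were 0.513 to 0.611 with a median of 0.563, with 7 of 7 animals above 0.5 (exact permutation P-value 0.0156, the smallest for 7 animals, adjusted P-value 0.0115). At chr5:4115087 the same animals had shares of 0.386 to 0.521 with a median of 0.435 and 6 of 7 were below 0.5, called on summed reads only and not without RS929. EXOSC9, a core subunit of the exosome, lay at 0.529 to 0.649 with a median of 0.587, above 0.5 in 6 of 6 animals at chr6:3674195 (adjusted P-value 0.0195).

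The cleavage and polyadenylation factors (12 SNPs in 4 genes) held the only gene of those selected by the leading SNP with the alternate allele higher. CPSF3L, an endonuclease also called INTS11 that belongs to the Integrator complex, had shares of 0.440 to 0.478 with a median of 0.465 at chr12:49282569. All 7 heterozygous animals were below 0.5, with less spread than counting error alone (dispersion 0.181, exact permutation P-value 0.0156, adjusted P-value 0.0319). It was 1 of 7 SNPs heterozygous in 1 to 14 animals at which the alternate allele was called with animals as replicates, the others being in SNRNP200, PRPF8, RBM28, DDX52 and, at 2 SNPs, DDX17.

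**Figure D3:**
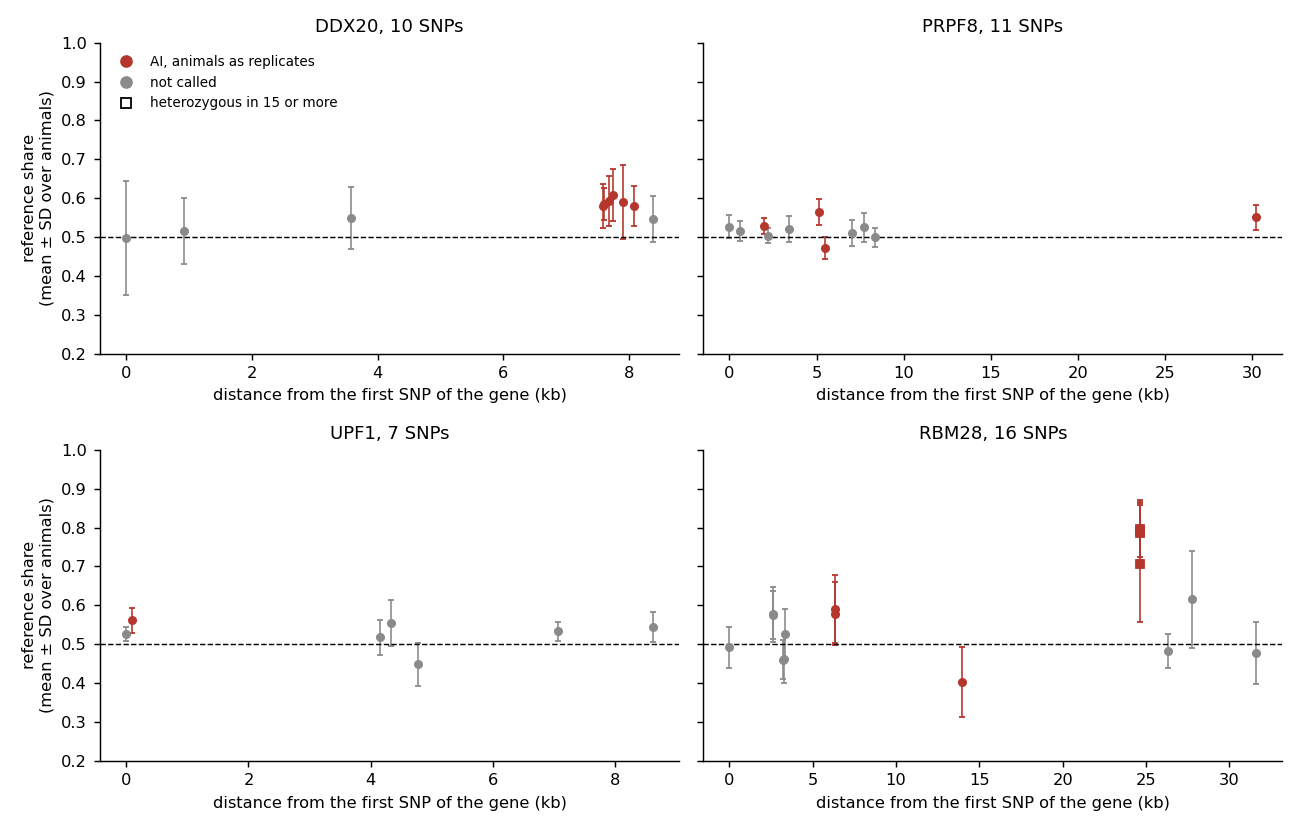
Mean reference share ± SD over heterozygous animals (vertical axis, drawn from 0.2 to 1) against the distance from the first SNP of the gene in kb for DDX20, PRPF8, UPF1 and RBM28; red marks AI with animals as replicates and squares mark SNPs heterozygous in 15 or more animals. DDX20 stays at or above 0.5 apart from its first SNP, whereas PRPF8 and RBM28 have called SNPs on both sides of 0.5.

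Called SNPs of both directions within a gene were found in 7 genes (DHX32, PRPF8, RBM26, RBM28, SF3B3, SNRNP200 and UPF1) on summed reads, among SNPs heterozygous in 1 to 14 animals. The share over all genes is not given, so the 7 describe the members only. Without RS929 the SNPs called towards the alternate allele in PRPF8, SF3B3 and UPF1 lost their calls. Their adjusted P-values on summed reads (likelihood ratio test) were then 0.0526 in PRPF8, 0.0592 and 0.156 in SF3B3 and 0.0602 in UPF1. Which reference alleles lie on the same parental chromosome is not known from these counts, so opposite directions at neighbouring SNPs need not be opposite effects on a chromosome. In PRPF8 and UPF1 the SNPs concerned were heterozygous in the same animals. Without RS929, 113 of the 362 SNPs were called on summed reads (31.2%, beside 33.6% of all), 103 of them with the reference allele higher, and 63 with animals as replicates (17.4%, beside 19.7%).

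The SNPs farthest from an equal share were compared with the animals called homozygous at them. At least 0.2 from an equal share were 31 SNPs in 10 genes: MBNL1, RBM39, HNRNPL, PRPF31, DDX6, SNRPD1, SRSF4, SRRM2, RBM28 and HNRNPM. At 22 of the 31 some animals were called homozygous for the more abundant allele. The less abundant allele made up at least 5% of the reads of these homozygotes at 20 of the 22, and at 14 the ranges of homozygous and heterozygous animals overlapped. The remaining 2 SNPs were those of SRSF4 and of SRRM2 at chr24:2267072, with under 1% in the homozygotes. Among SNPs with a called homozygote, these held at least 5% of the other allele at 14 of 362 member SNPs heterozygous in 1 to 14 animals (3.87%, beside 1.34% of all such SNPs). Of the SNPs heterozygous in 15 or more animals, 29 members had a called homozygote, and 10 of the 29 were of this kind (34.5%, beside 19.8% of all with a homozygote). Without such SNPs, an alternative chosen after the data were seen, 57 of 348 member SNPs heterozygous in 1 to 14 animals were called with animals as replicates (16.4%, beside 19.5% of all) and 22 of the 41 heterozygous in more (53.7%, beside 55.9%). The genotypes were called from the same RNA reads, so a wrong call and AI cannot be told apart at these SNPs.

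**Figure D4:**
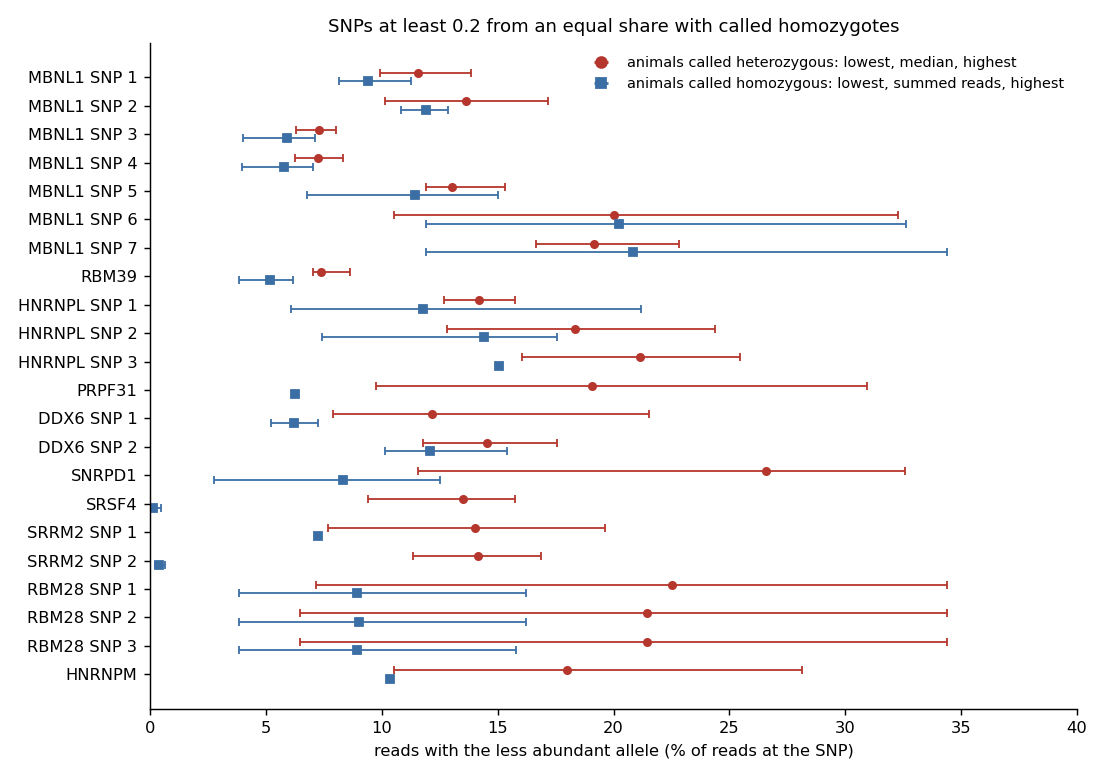
Reads of the less abundant allele, in per cent of reads at the SNP, in animals called heterozygous (red: lowest, median and highest animal) and in animals called homozygous for the other allele (blue: lowest animal, summed reads and highest animal) at the 22 SNPs at least 0.2 from an equal share that have such homozygotes. Blue and red overlap at 14 SNPs, for example in MBNL1, and stand well apart in SRSF4 and at 1 SNP of SRRM2.

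At most SNPs heterogeneity between animals was not called. Among SNPs heterozygous in 1 to 14 animals the median dispersion was 1.25 (1.41 over all such SNPs) and heterogeneity between animals passed the Pearson chi-square test at 27 of 362 SNPs, 7.46% compared with 14.3% of all. At SNPs heterozygous in 15 or more animals it passed at 18 of 51 (35.3%), compared with 18.9% of all, and the 18 were in 8 genes: 7 in SRRM2, 3 in SNRPD1, 2 in DDX17, 2 in HNRNPM and 1 each in DDX55, DDX6, MBNL1 and RBM28. With reads sampled to at most 50 per animal, 11 of the 362 and 8 of the 51 passed. The share of all SNPs that passed after sampling is not given. Whether the differences from all SNPs remain at equal depth was therefore not tested.

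The largest dispersion, 120, was at chr3:214150734 (reference A and alternate G), annotated as downstream of DDX17, a close relative of DDX5. In 15 animals called heterozygous the shares were 0.123 to 0.579 with a median of 0.544, at 528 to 980 reads each. They fell into separate sets: 11 animals had 0.525 to 0.579 and 4 had 0.123 to 0.160. The 4 low animals are the ones called homozygous for the alternate allele at chr3:214150708, 26 bp away, and the 11 are the ones called heterozygous there, while the 3 called homozygous for the reference allele were so at both SNPs. Over all 15 animals the summed share was 0.441, with the alternate allele higher on summed reads and no call with animals as replicates (adjusted P-value 0.290). In the 11 animals heterozygous at both SNPs, a choice made after the data were seen, it was 0.553 (mean 0.553 ± 0.0160, SD, n = 11, reference higher in 11 of 11). This choice left out every animal below 0.5, so no P-value is given for it. The direction of the summed share therefore turns with the 4 animals.

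The other SNPs beside DDX17 were of both kinds. At chr3:214150708, the SNP by which the animals were grouped, and at chr3:214150864 the alternate allele was higher and was called with animals as replicates. At chr3:214150804 and chr3:214151205 the 11 heterozygous animals had medians of 0.506 and 0.495 and the 4 animals held at most 0.00541 of reference reads. At chr3:214150863 the 4 animals lay at 0.479 to 0.547 and the 11 at 0.689 to 0.810, although both sets were called heterozygous, and the 1 bp distant SNP at chr3:214150864 had shares of 0.0852 to 0.570 with a median of 0.448 in 14 animals. The summed shares of this pair were 0.690 and 0.387.

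**Figure D5:**
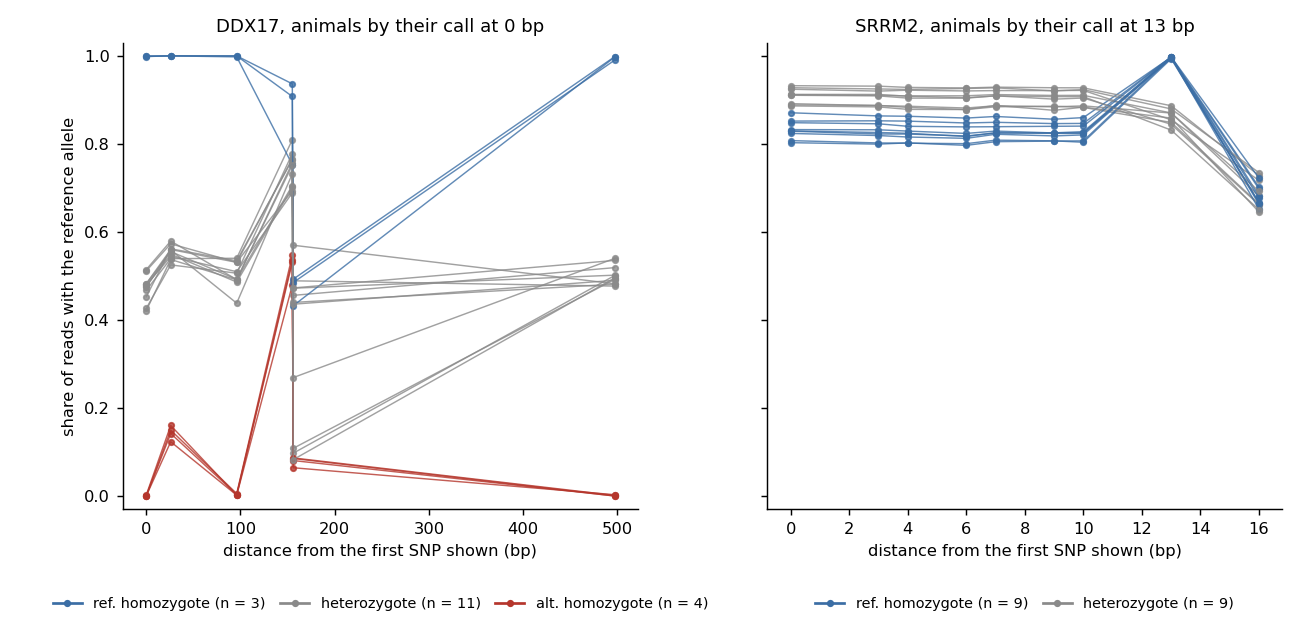
Share of reads with the reference allele in each of the 18 animals (1 line per animal, whatever its genotype call) against the distance in bp from the first SNP shown, for 6 SNPs beside DDX17 and 9 SNPs of SRRM2, coloured by the animal's call at the SNP named in the title. At the second DDX17 SNP the 4 red animals lie at 0.123 to 0.160 and the 11 grey ones at 0.525 to 0.579, and at the first 7 SRRM2 SNPs the blue and grey animals do not overlap.

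By the annotation of the table, 290 of the member SNPs were synonymous, 48 missense, 36 in a 3′ UTR, 5 in a 5′ UTR, 8 synonymous within a splice region and 2 stop gained. Among SNPs heterozygous in 1 to 14 animals, AI on summed reads was called at 84 of 263 synonymous SNPs (31.9%, beside 32.7% of all autosomal ones), at 6 of 33 missense SNPs (18.2%, beside 34.2%) and at 17 of 32 3′ UTR SNPs (53.1%, beside 40.1%). With animals as replicates 50 synonymous (19.0%, beside 19.3% of all), 4 missense (12.1%, beside 20.9%) and 8 3′ UTR SNPs (25%, beside 24.6%) were called, so that the larger fraction in the 3′ UTR was seen on summed reads only. SNPs of a gene are not independent, and 5 of the 3′ UTR SNPs were at least 0.2 from an equal share, in MBNL1 and DDX6.

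The depth at a SNP counts reads at a position, so it can be set side by side between genes. The median over the member genes was 84.7 reads per animal, beside 62.3 over all autosomal genes. HNRNPH1 was the deepest with 853 to 1648 reads per animal, followed by DDX5 (797 to 1331), DDX39B (477 to 1104), HNRNPA3 (515 to 822) and SRSF3 (456 to 751). RBM19, DDX10, RBM15, RBM43 and SRSF11 were the shallowest, with medians of 21.5 to 28 reads per animal. The table lists only SNPs that passed a minimum of reads, so genes with lower levels are not in it, and in a whole tissue fewer cells of a type and less RNA per cell cannot be told apart. At these depths the shares of RBM19, DDX10, RBM15 and RBM43, with medians of 0.489, 0.586, 0.524 and 0.593 over animals, were not called by either test, and AI of a few per cent was not detectable there.

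Genes of RNA processing outside the name rule were examined for comparison. Of 100 such genes listed from general knowledge, 52 had an autosomal SNP. AI was called on summed reads at 52 of their 199 SNPs heterozygous in 1 to 14 animals (26.1%, beside 34.6% of all). With animals as replicates it was called at 27 (13.6%, beside 20.8%), in 14 of 50 genes. The reference allele was higher at 25 of the 27. Their median reference share was 0.523, beside 0.519 for the members and 0.517 for all.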

How the data were processed

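RNA-Seq reads of 18 fetal PRAT libraries were mapped by the authors to Oar v3.1 with STAR, allowing mismatches and keeping uniquely placed reads. SNPs and genotypes were called by the authors from the same reads with GATK (3.4-46 in the submitters' processing notes), those in repeats or not in an ENSEMBL gene were removed, and a minimum of 10 reads of both alleles in at least 5 animals was set. The deposited values are read counts for either allele per SNP and animal, without normalization, with a genotype call and a predicted consequence. Reads that carry the alternate allele have 1 more mismatch to the reference, and reads that differ at several close SNPs have more, which can move the share towards the reference allele. Further columns with the authors' own test statistic, P-value, higher allele and reference proportion were not used. The column headed PS910 was taken as animal RS910 of the labels.

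Since both alleles are counted in 1 library, library size cancels. The reads at all SNPs were 2.97e+06 to 5.33e+06 per animal. In 153 pairwise chi-square comparisons of the libraries, chi-square divided by its degrees of freedom was 3.79 or more, so no library appeared more than once. The members, roles and lists were chosen with earlier results of these data known, and the roles and the other RNA processing genes come from general knowledge. At each SNP the reads of animals called 0/1 were summed and tested against an equal share (Poisson likelihood ratio test, 2 times the log likelihood ratio, chi-square with 1 degree of freedom). Animals were taken as replicates in a quasi-binomial F test whose dispersion was moderated across SNPs with limma 3.58.1 (prior degrees of freedom 10.3), and heterogeneity was tested with Pearson's chi-square. Each was adjusted by Benjamini-Hochberg over all autosomal SNPs (24001 on summed reads, 23963 with at least 2 heterozygous animals). Means, SDs and ranges over animals use heterozygous animals with at least 10 reads, and exact two-sided sign-flip permutation tests were run over them. The 89 empty counts, all without a genotype call, were set to 0. Python 3.11.15, scipy 1.17.1 and R 4.3.3 were used. The test on summed reads and the test with animals as replicates were also run on simulated counts of true heterozygotes. Only the latter was held to a limit on false calls there, and wrong genotype calls were not simulated.

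Named SNPs were the leading ones per role called by both tests in 5 to 14 animals, the 10 farthest from 0.5 among those heterozygous in 15 or more, the 8 with the largest dispersion, stop gained SNPs, and those of the genes with most SNPs, highest and lowest depth, or calls of both directions (at most 5 genes). SNPs beside a named one were added after their values were seen. Alternatives were another null share, a coverage of 30 reads, at least 5 heterozygous animals, reads sampled to 50, no neighbouring SNPs, unadjusted P-values, and leaving out RS929, RS902 or the males. P-values on summed reads and of the Pearson chi-square test are set against the counting error of reads only. Those with animals as replicates and of the permutation tests rest on the spread between these animals, which share a sire. Sequence around the SNPs was not analysed here.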

Additional observations from a re-analysis of the deposited data

Results flagged for a closer look

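In 41 of the named SNPs, those with 4 to 10 heterozygous animals, the highest and lowest animals were compared with the rest by Dixon's criterion, which marks about 1 group in 20 by chance. It marked 1 value. At PRPF8 chr11:22381478 animal RS929 had a reference share of 0.411 on 416 reads, while the other 8 of the 9 heterozygous animals lay at 0.462 to 0.513. RS929 is the animal labelled female whose X-linked calls lie in the range of the males; whether this bears on the value was not tested.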

How the results depend on the processing

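With 0.517 as the null share, 58 rather than 103 SNPs heterozygous in 1 to 14 animals were called above the null, and HNRNPH1 at 0.513 fell below it. With the coverage minimum raised to 30 reads per allele in 5 animals, only 212 of the 362 SNPs could be tested. Of these, 75 were called on summed reads (35.4%, beside 45.9% of all), 63 with the reference allele higher. With animals as replicates 46 were called (21.7%, beside 28.9%). Of those heterozygous in 15 or more animals, 19 were called on summed reads (67.9%, beside 72.5% of all), 18 with the reference allele higher. With animals as replicates 17 of them were called (60.7%, beside 62.4%), with heterogeneity at 11. With reads sampled to 50 per animal, 45 SNPs heterozygous in 1 to 14 animals, in 25 genes, were called with animals as replicates (12.4%, beside 13.8% of all). Heterogeneity passed at 11 and 8 SNPs of the groups. PRPF8 at chr11:22379374 (0.484) and DDX5 (0.48) turned to the alternate allele without a call. Without neighbouring SNPs, 13 SNPs heterozygous in 15 or more animals were called on summed reads (46.4%, beside 52.5% of all), 10 with the reference allele higher. With animals as replicates 10 were called (35.7%, beside 40.7%), with heterogeneity at 5. In the 11 animals heterozygous at both SNPs, DDX17 at chr3:214150734 turned to 0.553. Unadjusted, 152 SNPs heterozygous in 1 to 14 animals were called on summed reads. For this count and for the heterogeneity counts of the alternatives no share over all SNPs is given, so they describe the members only. Apart from these, 76 of 92 recomputed counts stayed within 1.5 times the value given. Of the recomputed shares of named SNPs 545 kept direction and call, 41 lost the call and 1 gained it. Many of the 545 shares could not change, because some alternatives only left out SNPs or changed the null share. The same holds where an animal left out was not heterozygous at the SNP. No paired analysis was possible because the animals form 1 group. Where the cause of a change is not the smaller number of SNPs or reads, it was not tested. Depth limits the calls at shallow genes, and SNPs with fewer than 5 heterozygous animals (5 of the 413) rest on few animals.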
